A study of Mus musculus with 59 samples.

Results

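H3K27ac peaks that lie beside a gene, rather than in it, and that carry no H3K4me3 numbered 3109 of the 54362 H3K27ac peaks of the mouse uterus. They were chosen as peaks on chromosomes 1 to 19 and X that had an assigned gene, were annotated as upstream or downstream of it, and overlapped no H3K4me3 peak. The 1654 peaks with the upstream label had 1536 genes and the 1455 peaks with the downstream label had 1368 genes. Both kinds occurred at 166 of the 2738 genes in all. The annotation states where the gene lies as seen from the peak, not where the peak lies as seen from the gene. Among peaks whose gene extent and strand could be looked up in RefSeq (assembly GRCm38.p6), 820 of 876 with the upstream label lay past the end of their gene, 2 lay before its start and 54 touched its extent. Of 696 with the downstream label, 629 lay before the gene start, 67 touched the extent and 0 lay past the end. Peaks labelled upstream are therefore called 3′-flank peaks here, and peaks labelled downstream are called 5′-flank peaks.

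The study profiled histone marks in uterus of C57/B6 mice by native chromatin immunoprecipitation and sequencing of low cell input, with one H3K27ac and one H3K4me3 library from each of 27 animals. No transgene or treatment is named for any group. Aged group 1 had 4 animals of 28 to 36 weeks, aged group 2 had 6 of 42 to 48 weeks and aged group 3 had 10 of 54 to 65 weeks; they were set against 7 young animals of 9 to 11 weeks. H3K27ac libraries held 7.604 M to 16.945 M reads (median 11.162 M), of which 32.27% to 48.7% lay in peaks. Chromatin came from whole tissue, so fewer cells of a type and less mark per cell cannot be told apart.

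H3K27ac, acetylation of lysine 27 on histone H3, marks active promoters and active enhancers, whereas H3K4me3, trimethylation of lysine 4, is concentrated at promoters. A region with the first mark and without the second is the usual chromatin definition of a candidate enhancer away from a start site. The uterus is built of a luminal and glandular epithelium that responds to oestrogen, a stroma that responds to progesterone and can decidualise, and a muscular wall, and each of these tissues uses its own set of enhancers.

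Flanking peaks were typically narrower and weaker than H3K27ac peaks as a whole, as were other peaks without H3K4me3, which is given as a description. Their median width was 1574.5 bp for 3′-flank peaks and 1590 bp for 5′-flank peaks, against 1843 bp for all H3K27ac peaks. Without H3K4me3, gene-body peaks had a median width of 1647 bp and intergenic peaks 1493 bp. The median level over the 27 libraries was 1.06 in 3′-flank and 1.05 in 5′-flank peaks, in normalized log2 RPKM (reads per kilobase of peak, scaled to library depth). The same flanks with H3K4me3 had medians of 1.44 on either side. Gene-body peaks without H3K4me3 had 1.08 and intergenic ones 1.05, against 1.21 for all peaks. A 3′-flank peak held a median of 36 reads per library and a 5′-flank peak 37, against 48 for all peaks. Gene-body and intergenic peaks without H3K4me3 held 38 and 34. The median distance from the gene was 2042 bp on the 3′ side and 2567 bp on the 5′ side. Genes with predicted or clone names made up 46.67% of 3′-flank and 47.97% of 5′-flank peaks, against 16.94% of all peaks with a gene. RefSeq gene extents were touched by 266 3′-flank and 280 5′-flank peaks. These counts include the extent of a peak's own gene, which 54 and 67 of the peaks looked up touched. A RefSeq gene start lay within 1 kb of 43 3′-flank and 124 5′-flank peaks, and their own gene's start within 1 kb of 1 and 84. Not all of these peaks therefore lie away from a start site.

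Promoter sequences inside flanking peaks were poor in CG, the dinucleotide that is dense at most mammalian promoters. RefSeq promoter windows (GRCm38.p6) of 300 bases, from 250 before to 50 after a gene start, lay wholly inside flanking peaks in 61 cases, over 54 peaks. They held a median of 4 CG, and 2 of the 61 (3.3%) held 10 or more. Windows inside H3K4me3 peaks numbered 15020, with a median of 21 CG and 10 or more in 84.1%, and all 32851 RefSeq windows had a median of 7, with 10 or more in 43.5%. CG reads the same on both strands, and matches were counted without overlap. The overlap with H3K4me3 was part of how the peaks were chosen, so these values describe the peaks and were not tested. The stretches below show the contrast and were picked after their values were seen. The first 3 come from 5′-flank peaks that were higher in aged group 3, the fourth from one that was lower, each cut to the part inside the peak, and the last is the CG-dense promoter of Hipk3, whose 5′-flank peak is described further down. CG is in capitals.
Zan peak, start of Gm38725, chr5:137477786-137478085, + strand: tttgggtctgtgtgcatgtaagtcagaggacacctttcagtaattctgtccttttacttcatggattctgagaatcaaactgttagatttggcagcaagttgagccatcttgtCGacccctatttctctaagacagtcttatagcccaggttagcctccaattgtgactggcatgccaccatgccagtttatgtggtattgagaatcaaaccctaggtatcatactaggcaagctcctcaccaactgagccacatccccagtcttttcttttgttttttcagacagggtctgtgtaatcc
Trpv6 peak, start of Gm34642, chr6:41641480-41641779, + strand: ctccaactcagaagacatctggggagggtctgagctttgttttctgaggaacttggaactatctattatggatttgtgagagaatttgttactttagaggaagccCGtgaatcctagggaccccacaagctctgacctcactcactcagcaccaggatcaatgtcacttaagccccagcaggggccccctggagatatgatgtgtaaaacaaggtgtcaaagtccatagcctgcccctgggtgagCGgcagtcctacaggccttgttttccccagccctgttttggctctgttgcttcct
Dnah12 peak, own start, chr14:26691374-26691603, + strand: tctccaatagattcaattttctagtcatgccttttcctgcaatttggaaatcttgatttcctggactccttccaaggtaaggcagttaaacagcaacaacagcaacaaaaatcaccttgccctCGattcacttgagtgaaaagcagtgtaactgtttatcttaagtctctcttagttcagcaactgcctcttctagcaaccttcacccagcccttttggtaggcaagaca
Casq1 peak, own start, chr1:172219984-172220145, - strand: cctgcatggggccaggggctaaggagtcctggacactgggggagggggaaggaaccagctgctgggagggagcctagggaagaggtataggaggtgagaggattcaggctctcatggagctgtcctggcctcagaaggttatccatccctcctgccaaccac
Hipk3 promoter in an H3K4me3 peak, chr2:104494440-104494739, - strand: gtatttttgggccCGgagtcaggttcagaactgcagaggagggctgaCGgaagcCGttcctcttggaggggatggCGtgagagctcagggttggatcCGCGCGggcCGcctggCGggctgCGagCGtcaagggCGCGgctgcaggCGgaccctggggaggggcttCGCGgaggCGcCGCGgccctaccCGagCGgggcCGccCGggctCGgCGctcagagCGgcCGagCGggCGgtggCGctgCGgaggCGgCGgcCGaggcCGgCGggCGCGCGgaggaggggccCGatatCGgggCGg
The Zan, Trpv6, Dnah12 and Casq1 stretches held 1, 2, 1 and 0 CG, against 42 in the Hipk3 window.

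MicroRNA genes owned 16 of the flanking peaks, at 13 genes, of which 1 peak rose and 2 fell in aged group 3 against young, a smaller share than the 29.3% of all peaks called in that comparison. The mature RNAs of those 3 genes, from RefSeq with the seed (bases 2 to 8) in capitals, share no seed.
mmu-miR-802-5p: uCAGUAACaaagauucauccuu
mmu-miR-802-3p: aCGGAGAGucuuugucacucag
mmu-miR-6344: gUUUUCCUacuguuucccuuuu
mmu-miR-290a-5p: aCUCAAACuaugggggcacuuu
mmu-miR-290a-3p: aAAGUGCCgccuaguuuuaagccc
The 3′-flank peak of Mir802, 4600 bp from its hairpin, had -0.02, 1.62 and 1.89 log2 RPKM (lowest, median and highest library) in aged group 3, against -0.82, 0.02 and 1.12 in young. It rose by 1.24 ± 0.32 on the log2 scale (model standard error, adjusted p = 0.00823 by limma), with 6 of the 10 aged group 3 libraries above every young library. The 5′-flank peak of Mir290a, a microRNA best known from mouse embryonic stem cells, had -0.87, 0.10 and 2.04 in aged group 3, against 1.16, 1.65 and 2.00 in young. Its change was -1.08 ± 0.39 (adjusted p = 0.038), with 7 aged group 3 libraries below every young library and 2 above every one. The 3′-flank peak of Mir6344 had -1.16, 0.23 and 2.04 in aged group 3, against 0.54, 1.68 and 2.04 in young, a change of -1.14 ± 0.32 (adjusted p = 0.0133) with overlapping groups. These peaks say where the mark lies and not how much of a microRNA was made.

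Aged group 3 was set against young to ask which flanking elements change across reproductive ageing. Of 9 peaks beside genes of the uterine epithelium 6 rose and 0 fell, and of 11 beside collagen and matrix genes 0 rose and 7 fell. The 9 and 11 peaks lay at 7 and 6 genes, and the lists were chosen with earlier results of these data known. Col3a1, Sparc and Ltf each held several of the called peaks. The smallest p among flanking peaks were those of Pigyl (a relative of a GPI-anchor synthesis subunit) and Foxc1 (a forkhead transcription factor), both higher in aged group 3. Both had low levels in young and a mean over all libraries below the first quartile of all peaks. They reached that quartile through aged group 3. Of all 54354 H3K27ac peaks tested, 29.3% passed the threshold of 0.05 on the adjusted p, 14.4% higher and 14.9% lower. Among 3′-flank peaks 293 rose and 219 fell, 31.0% of 1654. Among 5′-flank peaks 272 rose and 200 fell, 32.4% of 1455. These shares lie near the share over all peaks. On the 3′ side 144 of 1654 peaks passed with a rise over 2-fold and 48 with such a fall. On the 5′ side 144 and 49 of 1455 did, and among all 54354 peaks 3067 and 1459 did. Gene-body peaks without H3K4me3 had 1505 and 579 of 22719, and intergenic ones 629 and 439 of 7656. At any size of change, gene-body peaks without H3K4me3 had 3812 higher and 2658 lower, and intergenic ones 1234 and 1291. These values are a description with no test of the differences. The median change was 0.02 in 3′-flank and 0.04 in 5′-flank peaks, with -0.06 over all peaks.

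**Figure D1:**
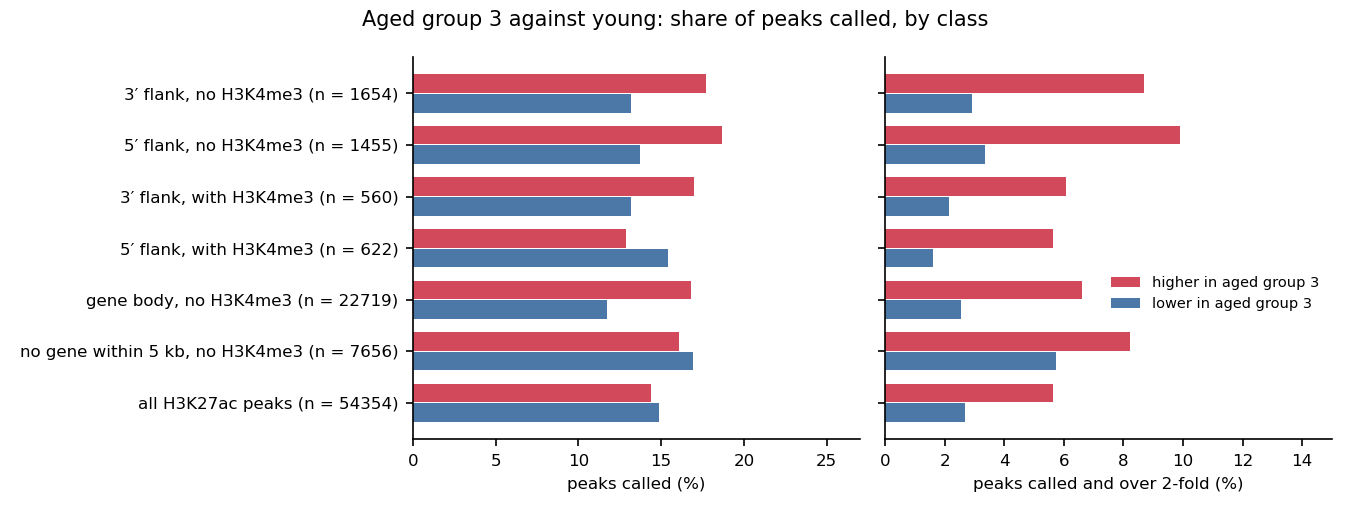
Share of H3K27ac peaks called in aged group 3 against young (left, %) and share called with a change over 2-fold (right, %), for 7 classes of peaks. Red bars are peaks higher and blue bars peaks lower in aged group 3. Flanking peaks without H3K4me3 show 17.7% and 18.7% higher and 13.2% and 13.7% lower, beside 14.4% higher and 14.9% lower over all peaks.

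How many peaks passed depended on which libraries were compared. Each library has a code that opens with a digit, and each animal a number under 100 or over 200. What these stand for is not stated. Of the 7 young animals 6 were numbered under 100, whereas all 4 of aged group 1 and all 6 of aged group 2 were over 200. Age and number series can hardly be told apart when aged groups 1 and 2 are compared with young. Digit 7 held 3 young libraries and 1 of aged group 3, and digit 6 held no young library. With the code digit as a factor, 34 3′-flank and 39 5′-flank peaks passed, where 761 of all peaks were higher and 604 lower. Without the libraries of digit 6, which are 3 of aged group 3 and 1 of aged group 2, 46 and 68 passed. All peaks then had 1019 higher and 938 lower. Among animals numbered under 100 alone, 3 of aged group 3 and 6 young, 0 and 0 peaks passed by limma, with 430 and 404 at an unadjusted p under 0.05. Of all peaks, 5 were higher and 3 lower among these animals. Animals numbered over 200 include 1 young animal, so no value within that series was computed. Leaving out a single library moved the count of the 200 5′-flank peaks that fell by over 1.5 times in 7 cases, where it was 126, 122, 123 or 125 without replicate 1, 2, 3 or 6 of young and 130, 131 or 133 without replicate 2, 6 or 9 of aged group 3. Without replicate 10 of aged group 3, whose epithelial minus stromal score was the lowest of its group, 300 fell. Over all peaks 5281 fell without replicate 2 of young and 11058 without replicate 10 of aged group 3, against 8092 with all libraries. On the 3′ side 142 fell without replicate 2 of young and 192 rose without replicate 6 of aged group 3. The split of higher and lower peaks also moved with the scaling. On the values as deposited, without quantile normalization, 304 rose and 338 fell on the 3′ side. On the 5′ side 296 rose and 324 fell. Over all peaks 7972 rose and 10698 fell on those values, with a median of -0.14.

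Markers of epithelium, stroma and smooth muscle moved with the groups at their promoters. Of 34 epithelial markers 15 had a promoter peak of H3K27ac, of which 9 were higher and 0 lower in aged group 3, and 12 of 24 stromal markers had one, of which 0 were higher and 10 lower. Smooth muscle had 11 of 19, with 0 higher and 7 lower. Markers of all leukocytes had 11 of 17, with 3 higher and 0 lower, and blood endothelium had 8 of 19, with 1 higher and 0 lower. The other cell type lists had few promoter peaks. Mean levels of the epithelial list had a lowest, median and highest library of 1.29, 2.15 and 2.37 in aged group 3, against 1.27, 1.43 and 2.06 in young, and those of the stromal list had 0.88, 1.38 and 2.23 in aged group 3, against 1.78, 2.28 and 2.37 in young. Cdh1 and Foxa2 (epithelium), Hoxa10 and Hand2 (stroma) and Myh11 (muscle) had no promoter peak by the RefSeq start used. The epithelial minus the stromal mean had a median of 0.90 (range -0.94 to 1.49) in aged group 3 and -0.84 (range -1.04 to 0.20) in young. With that score as a covariate, 1 3′-flank peak (Foxc1) and 3 5′-flank peaks (Pigyl, Gm50488 and Pla2g6) passed, all higher. Of all peaks, 38 were higher and 13 lower with that covariate. At an unadjusted p under 0.05, 129 3′-flank and 133 5′-flank peaks passed. The score comes from the same libraries, and its part in the changes was not tested further.

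The 3′-flank peaks that rose with the smallest p lay past the ends of Foxc1, Hsf2bp, Cdh3, Pard6b, Ikbke and Adig. The Foxc1 peak (chr13:31814416-31816149, 1940 bp past the gene) had -0.32, 1.145 and 1.76 log2 RPKM in aged group 3, against -2.19, -1.72 and -1.02 in young. Aged group 1 libraries had -0.56, -0.94, 0.07 and -1.02, and aged group 2 had -1.22, 0.455 and 1.17. Every aged group 3 library lay above every young library, and the change was 2.70 ± 0.34 (adjusted p = 2.66e-05). The Foxc1 promoter rose by 2.60 ± 0.25 (adjusted p = 4.08e-07), about as much as the flank, and H3K4me3 at that promoter rose by 1.73 (adjusted p = 1.82e-06).

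Cdh3, which encodes P-cadherin of epithelial junctions, had a 3′-flank peak at chr8:106560094-106562771 with 1.28, 2.045 and 2.48 in aged group 3, against -0.03, 0.79 and 1.5 in young, a change of 1.14 ± 0.21 (adjusted p = 0.0015). Pard6b, a subunit of the apical polarity complex, had 0.84, 1.65 and 2.00 in aged group 3, against -0.01, 0.45 and 1.36 in young (change 1.08 ± 0.22, adjusted p = 0.0024). For these genes 9 and 8 of the aged group 3 libraries stood above every young library. Hsf2bp, a meiotic recombination protein, changed by 1.2 ± 0.22, Ikbke, a kinase of interferon and NF-kappaB signalling, by 0.85 ± 0.17, and Adig, a small adipocyte protein, by 1.27 ± 0.26. The Ikbke peak touches a RefSeq gene extent. Its aged group 3 libraries had 1.33, 1.92 and 2.33, against 0.57, 0.95 and 1.46 in young, so the groups overlapped at their edges.

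The 3′-flank peaks that fell with the smallest p belonged to Rad51b, Rtkn2, Olfml3, Bmp1, Slc12a8 and Ap1m1. Rad51b, which takes part in homologous recombination, had 0.45, 0.98 and 1.21 in aged group 3, against 1.46, 1.69 and 2.09 in young, with no overlap and a change of -0.80 ± 0.14 (adjusted p = 0.00118). Aged group 1 (1.43, 1.31, 1.44 and 1.51) and aged group 2 (1.01, 1.225 and 1.40) had medians between them. Aged group 1 overlapped young but not aged group 3, and aged group 2 overlapped aged group 3 but not young. This peak touches a RefSeq gene extent, so its place outside Rad51b rests on the annotation the authors used. Olfml3, a secreted glycoprotein of the extracellular matrix, had a peak at chr3:103717231-103717903 with -0.57, 0.395 and 1.27 in aged group 3, against 1.46, 1.82 and 2.18 in young (change -1.40 ± 0.26, adjusted p = 0.0017). Bmp1, the protease that trims procollagens, had -0.54, 0.41 and 1.16 in aged group 3, against 1.28, 1.61 and 1.98 in young (change -1.17 ± 0.24, adjusted p = 0.00286). Olfml3 and Bmp1 showed no overlap between aged group 3 and young. Rtkn2, rhotekin 2, changed by -1.04 ± 0.19, Slc12a8, of the cation-chloride transporter family, by -1.09 ± 0.23, and Ap1m1, a clathrin adaptor subunit, by -1.05 ± 0.22, each with at least 1 aged group 3 library inside the young range.

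The 5′-flank peaks that rose with the smallest p belonged to Pigyl, Eva1c, Asah2, Odf2l, Khdc1a and Zan. The Pigyl peak (chr9:22149167-22152029, 4817 bp before the gene) had 0.86, 1.825 and 2.69 in aged group 3, against -0.67, -0.23 and 0.21 in young. Aged group 1 had 0.36, 0.51, 0.47 and 0.47 and aged group 2 had 0.47, 1.005 and 1.59, so no library of the 3 older groups came down to the highest young one. The change was 1.93 ± 0.24 (adjusted p = 2.31e-05). Eva1c, a membrane protein whose worm relative takes part in axon guidance, had 0.87, 1.455 and 2.18 in aged group 3, against -0.52, 0.50 and 0.81 in young (change 1.21 ± 0.22, adjusted p = 0.00153). Asah2, neutral ceramidase, had 1.19, 1.83 and 2.87 in aged group 3, against -0.04, 0.41 and 1.03 in young (change 1.34 ± 0.26, adjusted p = 0.00189). All 10 aged group 3 libraries were above every young library for Eva1c and Asah2, as for Pigyl. Odf2l, a centriole and cilium protein, changed by 1.78 ± 0.34, Khdc1a, an oocyte protein with a KH domain, by 1.35 ± 0.26, and Zan, the sperm protein zonadhesin, by 1.40 ± 0.27. The Zan peak spans the start of the predicted gene Gm38725 printed above, so its gene assignment is one of several possible.

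**Figure D2:**
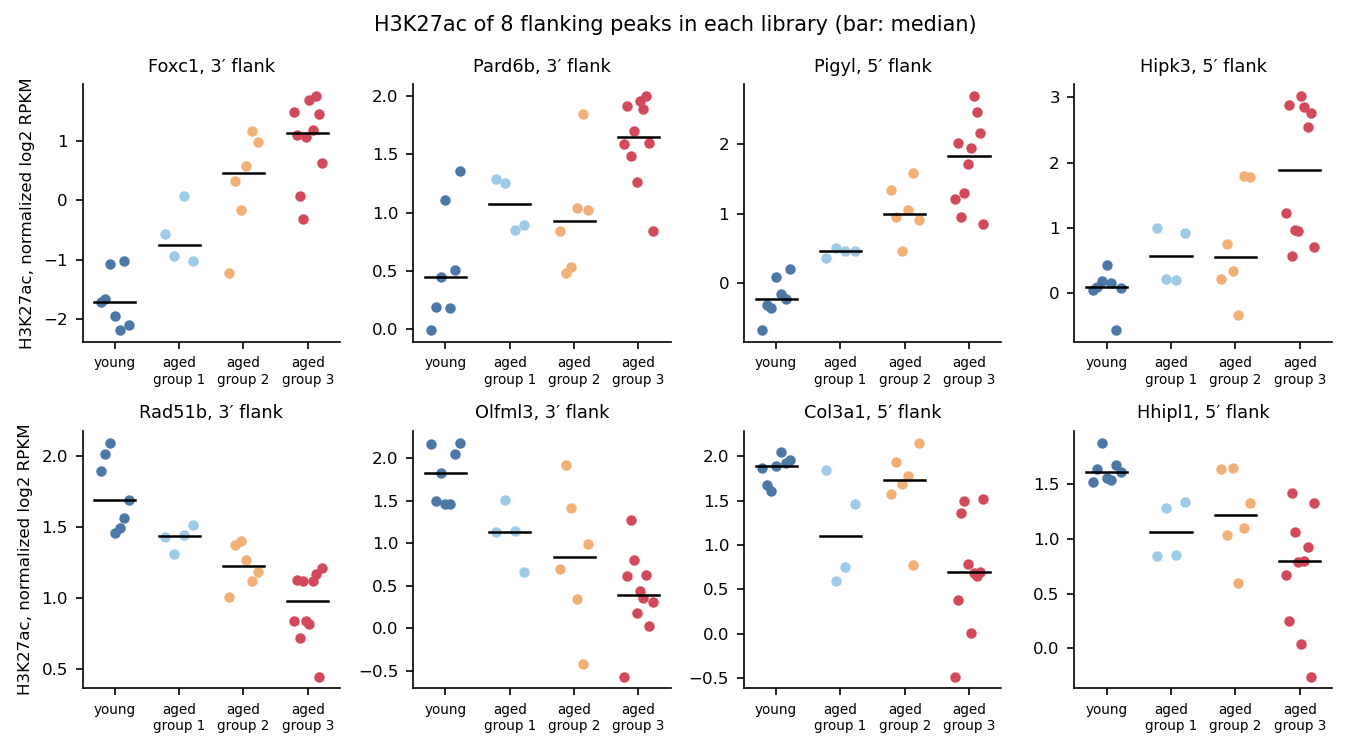
H3K27ac of 8 flanking peaks in each library, in normalized log2 RPKM (vertical axis, a separate scale per panel), by age group from young to aged group 3. Points are libraries and bars are group medians. In the upper row every aged group 3 library of Foxc1, Pigyl and Hipk3 lies above the young libraries, while Pard6b overlaps; in the lower row every aged group 3 library of Rad51b, Olfml3, Col3a1 and Hhipl1 lies below them.

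The 5′-flank peaks that fell with the smallest p belonged to Rpsa-ps5, Rnf157, Col3a1, Ccne1, Faap20 and Hhipl1. Col3a1, type III collagen, had -0.48, 0.695 and 1.52 in aged group 3, against 1.61, 1.89 and 2.05 in young, a change of -1.14 ± 0.24 (adjusted p = 0.00315). Hhipl1, of the hedgehog-interacting protein family, had -0.26, 0.795 and 1.42 in aged group 3, against 1.52, 1.61 and 1.88 in young (change -0.93 ± 0.21, adjusted p = 0.00433). Neither gene showed overlap between aged group 3 and young. Ccne1, cyclin E1, changed by -1.28 ± 0.28 and Faap20, of the Fanconi anaemia core complex, by -0.82 ± 0.18, with 9 aged group 3 libraries below every young library for each. Rnf157, a ubiquitin ligase, changed by -0.97 ± 0.20 and the ribosomal protein pseudogene Rpsa-ps5 by -0.92 ± 0.18. Pseudogene sequence can share reads with its parent gene, so the last value is uncertain.

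All 24 of these peaks kept their direction in every alternative in which they were tested. All 24 calls held when any single library of aged group 3 or young was left out. The 24 were picked for the smallest p in this same comparison, so these checks give no independent support. Libraries of aged groups 1 and 2 were not left out for this comparison. Leaving out peaks whose mean over all libraries was below the first quartile removed 4 of the 24, Foxc1, Pigyl, Odf2l and Slc12a8, and the other 20 calls held. With the code digit as a factor 20 of the 24 calls held. Among animals numbered under 100 none of the 24 passed, and with the epithelial minus stromal score 2 did, Foxc1 and Pigyl. Over the alternatives in which they were tested, the change ran from 1.21 to 2.85 for Foxc1 and from 1.21 to 2.05 for Pigyl.

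Peaks of the younger ages differed less from young, as a description over peaks that were chosen on the oldest group. At the 293 3′-flank peaks that rose in aged group 3, the median change against young was 0.20 in aged group 1, 0.40 in aged group 2 and 0.99 in aged group 3. At the 219 that fell it was -0.30, -0.42 and -0.84 in the same order. At the 272 5′-flank peaks that rose it was 0.25, 0.46 and 1.02, and at the 200 that fell it was -0.30, -0.38 and -0.83. All these comparisons share the 7 young libraries, so the order of the medians was not tested. In the tests of each age by limma, 0 flanking peaks passed for aged group 2 against young, where 0.011% of all peaks did. At an unadjusted p under 0.05 that comparison had 143 3′-flank and 150 5′-flank peaks (8.65% and 10.3%), near the 8.92% of all peaks. Foxc1 came closest, at 1.96 ± 0.38 (adjusted p = 0.0912). It passed on the values as deposited (2.17 ± 0.36, adjusted p = 0.0103), under median centring (2.21 ± 0.36, adjusted p = 0.0108) and without replicate 1 of aged group 2 (2.26 ± 0.37, adjusted p = 0.0283).

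No flanking peak passed for aged group 1 against young, aged group 2 against aged group 1 or aged group 3 against aged group 2, where 0% of all peaks did by limma. Unadjusted p under 0.05 was reached by 71 3′-flank and 49 5′-flank peaks, by 44 and 43, and by 259 and 252 in those comparisons. The shares were 4.29% and 3.37%, 2.66% and 2.96%, and 15.7% and 17.3%, near the 3.93%, 2.78% and 16% of all peaks. Without replicate 5 of aged group 2, 2 3′-flank and 4 5′-flank peaks passed for aged group 3 against aged group 2, where 12 of all peaks were higher and 22 lower. They were chosen after their values were seen. Clca3b, a chloride channel accessory protein, was 1.47 ± 0.29 higher past its end, and Ppp1cc, a catalytic subunit of protein phosphatase 1, was 1.3 ± 0.26 higher. Fdps, an enzyme of isoprenoid synthesis, Mphosph6 and Cfap58 rose on the 5′ side by 1.44 ± 0.24, 1.65 ± 0.31 and 1.89 ± 0.37. Pdcd1, which encodes PD-1, an inhibitory receptor on T cells, changed by -1.11 ± 0.22 on the same side.

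Flanking peaks of the gene lists for uterine cell types and pathways, 79 peaks at 62 of 546 listed genes, held 14 that rose and 20 that fell. The epithelial list had 9 peaks at 7 of its 34 genes, of which 6 rose and 0 fell, with a median change of 0.89. Klf5, a transcription factor of epithelia, had a 5′-flank peak (chr14:99296094-99296840) with 0.31, 1.035 and 2.52 in aged group 3, against -2.50, -0.18 and 0.91 in young (change 1.70 ± 0.38, adjusted p = 0.00428). Every young library of this peak lay below the first quartile of mean level over all peaks (0.933), so its young levels were low. Ltf, the oestrogen-induced secretory protein lactoferrin, had a 5′-flank peak (chr9:111011167-111016458) with 0.90, 2.32 and 2.70 in aged group 3, against 0.30, 0.71 and 2.16 in young. It rose by 1.21 ± 0.27 (adjusted p = 0.00444). Its 3′-flank peak had 0.12, 1.235 and 1.89 in aged group 3, against -0.01, 0.14 and 0.84 in young (change 0.89 ± 0.28, adjusted p = 0.0205). For Klf5 and both Ltf peaks 7 of the 10 aged group 3 libraries were above every young library.

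Sprr2f, a cornified-envelope protein, changed by 1.37 ± 0.39 and the 5′-flank peak of Esrp1, an epithelial splicing regulator, by 0.85 ± 0.26. Krt8, a keratin of simple epithelia whose 3′-flank peak touches a RefSeq gene extent, had 0.25, 1.875 and 2.70 in aged group 3, against 0.08, 0.73 and 0.98 in young (change 0.99 ± 0.38, adjusted p = 0.0478). Krt18, its partner keratin, had a change of 0.55 ± 0.24 (adjusted p = 0.0867) and Cldn3, a tight-junction protein, 0.33 ± 0.20 (adjusted p = 0.211), and neither passed. The 3′-flank peak of Esrp1 had -0.25 ± 0.35 (adjusted p = 0.592), in contrast to the 5′ one. The oestrogen list had 8 peaks, of which 4 rose and 0 fell, and shares the Ltf peaks with the epithelial list. Clca1, a secreted regulator of chloride channels, had -1.44, 1.49 and 1.92 in aged group 3, against -0.77, -0.30 and 0.04 in young, so 8 libraries lay above every young library and 1 below (change 1.38 ± 0.41, adjusted p = 0.0168). Nrip1, a corepressor of the oestrogen receptor, changed by 0.59 ± 0.22 (adjusted p = 0.0443).

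Collagens and matrix had 11 peaks at 6 of 37 genes, of which 0 rose and 7 fell, with a median change of -0.72. Col3a1 lost signal on either side, with the 5′-flank peak given above and 3′-flank peaks at chr1:45353532-45354313 (-1.09 ± 0.35, adjusted p = 0.0227) and chr1:45354625-45357820 (-0.72 ± 0.23, adjusted p = 0.0227). Sparc, a matricellular collagen-binding protein, had 2 called 5′-flank peaks. The one at chr11:55423780-55425809 had -0.03, 1.17 and 1.96 in aged group 3, against 1.59, 2.09 and 2.19 in young (change -0.84 ± 0.22, adjusted p = 0.00865). The one at chr11:55427706-55429715 changed by -0.80 ± 0.21 (adjusted p = 0.00984). Lamb1, a laminin chain of basement membranes, changed by -0.87 ± 0.32 (adjusted p = 0.0412) and Dcn, the proteoglycan decorin that coats collagen fibrils, by -0.72 ± 0.27 (adjusted p = 0.0452). Bgn, the related biglycan, had -0.58 ± 0.24 (adjusted p = 0.0628) and did not pass. These groups overlapped apart from the Col3a1 5′-flank peak.

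**Figure D3:**
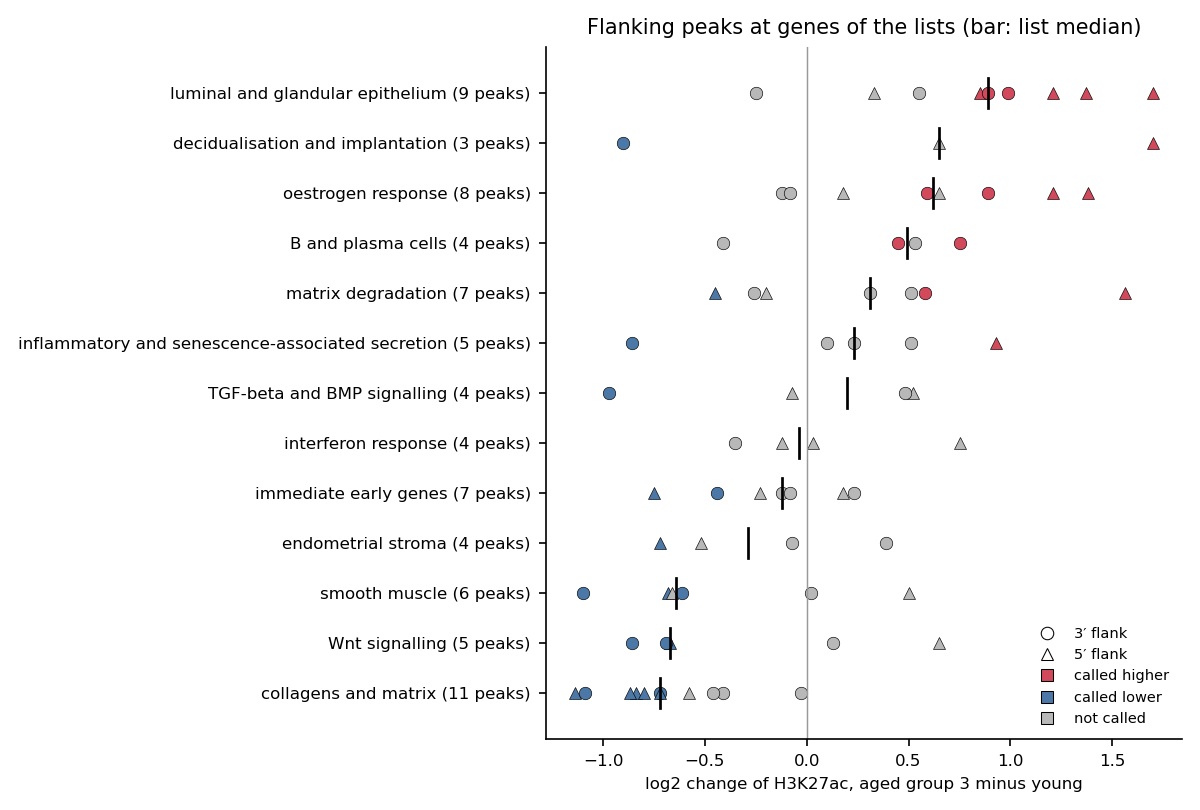
Log2 change of H3K27ac in aged group 3 minus young (horizontal axis) for flanking peaks at genes of the lists with 3 peaks or more. Circles are 3′-flank and triangles 5′-flank peaks, coloured by the call, and bars are list medians. The epithelial list has a median of 0.89 with 6 called higher, and collagens and matrix have -0.72 with 7 called lower.

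Smooth muscle had 6 peaks, of which 0 rose and 3 fell, beside promoters of the same list of which 7 of 11 fell. Ramp1, a receptor activity-modifying protein, changed by -1.10 ± 0.31 (adjusted p = 0.0122), Smtn, the contractile protein smoothelin, by -0.68 ± 0.20 (adjusted p = 0.0163) and Csrp1, an actin-associated LIM protein, by -0.61 ± 0.21 (adjusted p = 0.0319). A second 5′-flank peak of Smtn had 0.50 and did not pass. Wnt signalling had 5 peaks, of which 0 rose and 3 fell: the ligand Wnt2b (-0.86 ± 0.24, adjusted p = 0.0119), the feedback inhibitor Axin2 (-0.67 ± 0.19, adjusted p = 0.0123) and the receptor Fzd2 (-0.69 ± 0.25, adjusted p = 0.0371). The Wnt2b and Axin2 peaks touch RefSeq gene extents. A second 3′-flank peak of Wnt2b had 0.13 (adjusted p = 0.727) and did not pass. Wnt4, a ligand of the decidual response, had 0.65 ± 0.39 (adjusted p = 0.193) with -0.75, 1.995 and 2.67 in aged group 3, against 0.23, 0.86 and 2.08 in young.

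The hormone and stroma lists held few flanking peaks. Of 2 progesterone peaks 1 fell, that of Hsd11b2, the enzyme that inactivates corticosterone (-1.04 ± 0.29, adjusted p = 0.0116). Of 3 decidualisation peaks Klf5 rose and Egfr, the receptor of epidermal growth factor, fell (-0.90 ± 0.28, adjusted p = 0.02). Of 4 stromal peaks Dcn fell. TGF-beta signalling had 4, of which the co-receptor Tgfbr3 fell (-0.97 ± 0.32, adjusted p = 0.0266). Matrix degradation had 7, of which Plat, tissue plasminogen activator, rose by 1.56 ± 0.39 at its 5′ flank (adjusted p = 0.00714). Mmp15, a membrane metalloprotease, rose by 0.58 ± 0.17 (adjusted p = 0.0135), and Timp2, a metalloprotease inhibitor, fell by 0.45 on the log2 scale (adjusted p = 0.0262). The 3′-flank peak of Plat had -0.26 (adjusted p = 0.208) and a second 3′-flank peak of Mmp15 had 0.51 (adjusted p = 0.18), and neither passed.

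Of the immune and stress lists, B and plasma cells had 4 peaks, with 2 called, both at Mzb1, a plasma-cell chaperone (0.75 ± 0.26 and 0.45 ± 0.16). Secreted factors had 5, with Gdf15, a stress cytokine, higher (0.93 ± 0.30, adjusted p = 0.0243) and Igfbp4, which binds insulin-like growth factors, lower (-0.86 ± 0.25, adjusted p = 0.0157). The called Gdf15 peak was on the 5′ side, and its 3′-flank peak had 0.10 (adjusted p = 0.787). Of 2 senescence peaks Gadd45g, a stress-induced growth arrest gene, rose (0.96 ± 0.31, adjusted p = 0.0227). Of 7 immediate early peaks Klf2 (-0.75 ± 0.26) and Ier5 (-0.44 ± 0.16) fell. The 4 interferon, 2 circadian, 2 macrophage and single endothelial, lymphatic and pericyte peaks had none that passed. Lists for T and NK cells, all leukocytes, adipocytes and mesothelium, HOX clusters and chromatin regulators owned no flanking peak. These counts stand beside 14.4% higher and 14.9% lower over all peaks, and the lists are small.

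The share of calls did not change steadily with distance from the gene, which was not tested. On the 5′ side the share higher was 13.0% of 230 peaks within 1 kb of the start and 23.3% of 317 peaks from 1 to 2 kb, then 20.7%, 20.3% and 14.5% in the next 3 bins of 1 kb, and the share lower was between 12% and 14.9%. On the 3′ side the share higher ran from 14% to 22.2% and the share lower from 9.3% to 17.2% over the same bins. Peaks of genes with predicted or clone names had 19.3% higher and 13.9% lower on the 3′ side and 18.1% and 15.8% on the 5′ side, against 16.3% and 12.7% and 19.3% and 11.9% for other names. Peaks of long noncoding RNA genes had 18.8% higher and 17.3% lower among 202 on the 3′ side.

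**Figure D4:**
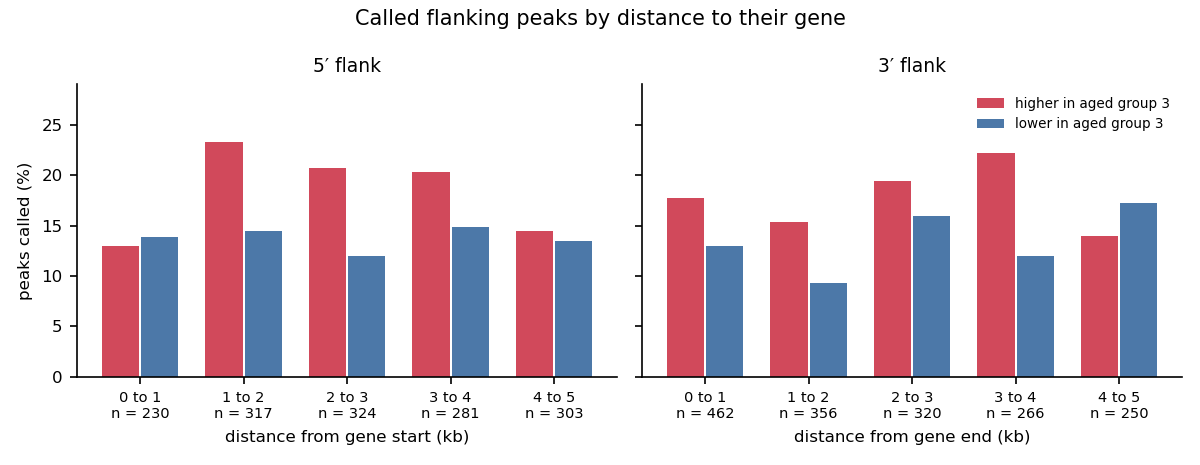
Share of flanking peaks called in aged group 3 against young (vertical axis, %) by distance from the gene start (5′ flank, left) or gene end (3′ flank, right) in bins of 1 kb, with the number of peaks under each bin. Red bars are peaks higher and blue bars peaks lower in aged group 3. The 5′-flank bins range from 13.0% to 23.3% higher.

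Genes with more than 1 called flanking peak mostly moved one way. On the 3′ side 17 genes had 2 or more called peaks, and in 16 these shared a direction. On the 5′ side it was 15 of 15. Called peaks on both flanks occurred at 30 genes, in 24 of which they shared a direction, among them Col3a1 (lower) and Ltf (higher). Neighbouring peaks can be parts of one element and are not independent of each other. Dnah12, an axonemal dynein of motile cilia, had adjoining 5′-flank peaks. The peak at its RefSeq start, shown above, had 0.33, 1.915 and 2.95 in aged group 3, against -0.45, 0.49 and 1.04 in young (change 1.5 ± 0.37, adjusted p = 0.00699), and the one beside it changed by 2.03 ± 0.48 (adjusted p = 0.00521).

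Called promoters of the same genes mostly had the direction of the called flank. Of 472 5′-flank peaks whose gene had an H3K27ac promoter peak, 51 fell, and 32 of their promoters fell and 0 rose. The 98 that rose had 31 promoters higher and 4 lower. On the 3′ side, with 560 such peaks, the 75 that fell had 28 promoters lower and 3 higher, and the 99 that rose had 18 higher and 6 lower. The difference between the sides was not tested. Promoters of flanks that were not called had 8.0% higher and 18.6% lower on the 5′ side and 6.0% higher and 22% lower on the 3′ side. H3K4me3 at promoters, for which 30.7% of peaks passed in this comparison, gave 27 lower and 0 higher beside 49 5′-flank peaks that fell and 24 higher and 8 lower beside 95 that rose. On the 3′ side it gave 21 lower and 6 higher beside 67 that fell and 21 higher and 10 lower beside 93 that rose.

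The change of the flank minus the change of its promoter was tested within libraries. Over 16989 pairs of a promoter with another peak of its gene, 20% passed, 15.9% with the other peak higher relative to the promoter and 4.13% lower. The 3′-flank peaks had 96 more and 30 less than their promoter in 560 pairs (22.5%), and 5′-flank peaks 74 more and 17 less in 472 pairs (19.3%), near the share over all pairs. The median difference was 0.12 and 0.16, against 0.16 over all pairs. These values moved with the scaling. On the values as deposited, the median was 0.034 at 3′-flank peaks and 0.08 over all pairs, of which 3039 were higher and 1385 lower. With quantile normalization 2703 of all pairs were higher and 701 lower. Without replicate 1, 2 or 3 of young, the 3′-flank count was 76, 73 or 65 and the 5′-flank count 57, 56 or 54. Without replicate 2 or 6 of aged group 3 it was 83 or 76 on the 3′ side and 55 or 57 on the 5′ side, and without replicate 8 or 9 it was 59 or 60 on the 5′ side. With the replicate number as a block it was 52 and 43, and with the epithelial minus stromal score 0 and 0. With the code digit as a factor it was 10 and 7, without code digit 6 it was 3 and 1, and among animals numbered under 100 it was 0 and 0. Over all pairs these settings gave 340 higher and 37 lower, 101 and 17, and 0 and 0. The single pairs that follow were not followed through these settings.

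Hipk3, a homeodomain-interacting protein kinase, had a 5′-flank peak (chr2:104497440-104498646) with 0.57, 1.89 and 3.02 in aged group 3, against -0.57, 0.09 and 0.43 in young, with no overlap. It rose by 1.79 ± 0.36 (adjusted p = 0.00253), while its CG-dense promoter had -0.22 ± 0.10 (adjusted p = 0.102). The difference of flank and promoter was 2.01 ± 0.40 (adjusted p = 0.00349). Odf2l had 0.30, 1.475 and 2.34 at its 5′ flank in aged group 3, against -0.84, -0.31 and 0.30 in young, and its promoter had -0.14 ± 0.083 (difference 1.92 ± 0.35, adjusted p = 0.00203). Ino80, the ATPase of a chromatin remodelling complex, differed by 1.14 ± 0.23 (adjusted p = 0.00356). On the 3′ side Dcun1d4, which helps attach NEDD8 to cullins, rose by 1.09 ± 0.31 while its promoter fell by 0.77 on the log2 scale (difference 1.86 ± 0.40, adjusted p = 0.00503). Sema6c, a transmembrane semaphorin, differed by 1.67 ± 0.34 (adjusted p = 0.00419), and its promoter had -0.48 ± 0.19 (adjusted p = 0.0547).

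Pairs in which the flank lost against its promoter were fewer. Timm10, a chaperone of mitochondrial import, had 0.02, 0.915 and 2.21 at its 3′ flank in aged group 3, against 1.70, 2.12 and 2.28 in young, while its promoter had 0.24 ± 0.14 (difference -1.2 ± 0.26, adjusted p = 0.00526). Mtch2, a mitochondrial outer-membrane protein, differed by -1.04 ± 0.26 and Olfml3 by -0.85 ± 0.20. For Rnf180, a ubiquitin ligase, and Cp, the copper carrier ceruloplasmin, the promoter moved and the flank did not pass. The Rnf180 promoter rose by 1.2 ± 0.23 (adjusted p = 0.0019) with 0.27 ± 0.26 at the flank, and the Cp promoter rose by 0.74 ± 0.16 (adjusted p = 0.00365) with 0.00 ± 0.13 at the flank. The Cp peak touches a RefSeq gene extent. Arhgef3, a guanine nucleotide exchange factor, had a promoter that fell by 0.91 on the log2 scale (adjusted p = 0.0101) with 0.42 ± 0.26 at its 3′ flank, and Ccdc86 had a 5′ flank that fell by 0.66 (adjusted p = 0.0265) with 0.42 ± 0.20 at the promoter. For Foxc1, Asah2, Col3a1 and Hhipl1 the flank differed from the promoter by 0.10, 0.04, 0.06 and 0.09, and none of the 4 differences passed.

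**Figure D5:**
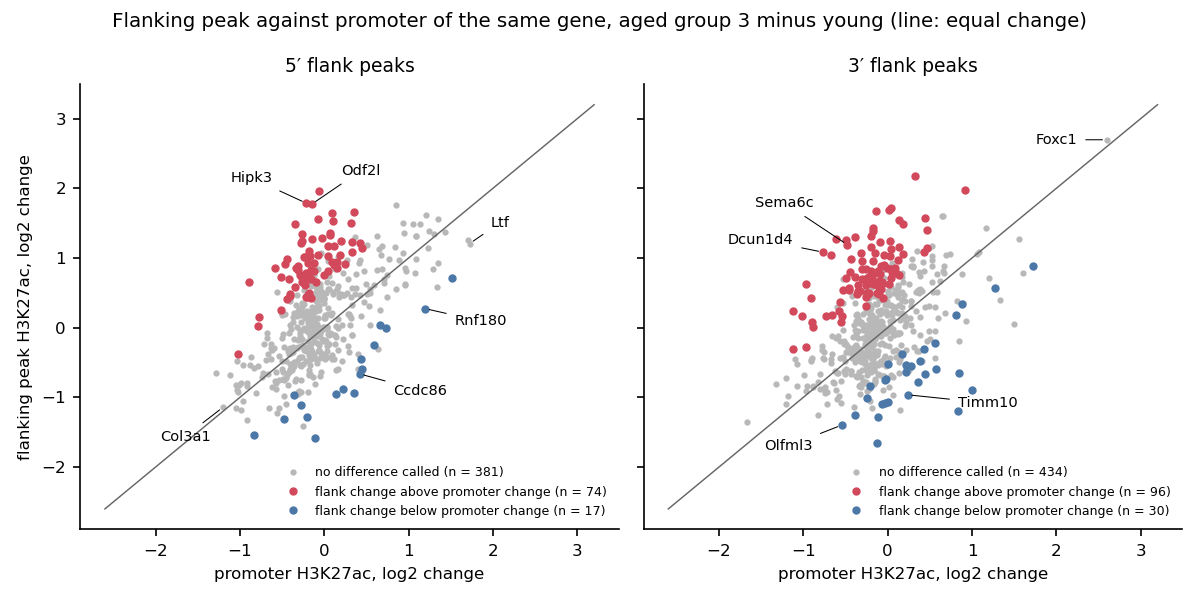
Log2 change of H3K27ac in aged group 3 minus young at flanking peaks (vertical axis) and at the promoter of the same gene (horizontal axis), for 472 pairs with a 5′-flank peak and 560 with a 3′-flank peak. Red points are pairs whose flank change was above, and blue points pairs whose flank change was below, the promoter change by the test within libraries, and the line marks equal change. Hipk3 and Odf2l stand above the line with promoter changes of -0.22 and -0.14, and Foxc1 lies on it.

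The flanking peaks with the highest mean level were, on the 3′ side, those of Kctd21, an adaptor of a cullin ubiquitin ligase (2.63 log2 RPKM over 27 libraries), Gm19572 (2.52) and Usp36, a nucleolar deubiquitinase (2.38). On the 5′ side they were those of Topaz1, a germ-cell gene (2.34), Rhbdf2, a rhomboid family protein that controls the sheddase ADAM17 (2.27), and A730020M07Rik (2.26). Of these 6, Kctd21 passed, with 2.2, 2.93 and 3.08 in aged group 3, against 2.14, 2.44 and 2.81 in young (change 0.41 ± 0.12, adjusted p = 0.0135). The other 5 had changes between -0.41 and 0.31. Flanking peaks took a median of 1.957% of peak reads on the 3′ side in aged group 3 libraries (range 1.799% to 2.147%) and 1.835% in young (range 1.782% to 1.947%). On the 5′ side the medians were 1.722% in aged group 3 (range 1.557% to 1.902%) and 1.564% in young (range 1.514% to 1.683%). These shares overlapped between the groups and were not tested.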

How the data were processed

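H3K27ac was measured in 27 libraries of mouse uterus, with H3K4me3 from the same animals. The deposited tables hold log2 RPKM per peak and library, with 1 column per library and 1 peak set per mark, per the file headers. Named without roles, per the submitters' processing notes, are GRCm38, deepTools 3.5.1, ChIPseeker 1.34.1, DESeq2, DiffBind 3.8.0, MACS2 2.2.9.1 and Bowtie2. Every value corresponded to a whole read within 0.05, or to 0.9 reads in a peak without reads. Each animal gave 1 library per mark, so p-values measure the spread between these libraries.

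Values were quantile normalized and fitted with limma 3.58.1 in R 4.3.3 (lmFit, eBayes with trend) as 4 group means over the 54354 peaks of chromosomes 1 to 19 and X, with two-sided p-values adjusted by Benjamini-Hochberg across these peaks and a threshold of 0.05. A change is a difference of group means in log2, with the model's standard error. The fit was tested on simulated data. The flank minus promoter difference was fitted in the same way over 16989 pairs, a promoter being the peak within 1 kb of the RefSeq gene start. Sequences are RefSeq, GRCm38.p6.

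The members and gene lists were chosen with earlier results of these data known. Named were the 6 peaks of smallest p per flank and direction for aged group 3 against young, 2 for the other contrasts, 3 for flank minus promoter, up to 3 per list, and the 3 of highest mean level. Predicted names were left out, except among list peaks and those of highest mean level. With the same exceptions, each had a mean no lower than the first quartile of all peaks in at least 1 group. A peak could therefore pass through the group where it is high. All other list members named, the microRNAs, Gm50488, Pla2g6, Trpv6, Dnah12, Casq1 and the sequences were picked after their values were seen. Alternatives were values as deposited, median centring, no trend, log2 of RPKM + 1, a filter leaving out peaks below the first quartile of mean level, 2 groups alone, library code, animal number, the cell type score, the replicate block, leaving out each library, and stricter membership. Input libraries were not used. A control gene's peak is not reported here.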

Additional observations from a re-analysis of the deposited data

Results flagged for a closer look

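Over the 24 peaks of smallest p, the share of peak reads in each flank and the epithelial minus stromal score, 108 groups of 4 to 10 libraries were examined, and 7, all at the 24 peaks, had a library far from the rest of its group, by its gap to the nearest library over the range of the group; chance gives about 1 in 20. Replicate 5 of aged group 2 was high for the 3′ flank of Cdh3 (2.30 log2 RPKM) and low for that of Ap1m1 (0.34), and replicate 6 of aged group 2 was high for that of Ikbke (2.21). Replicate 4 of aged group 3 was high for the 3′ flanks of Slc12a8 (1.65) and Ap1m1 (1.61), which both fell in that group. In aged group 1, replicate 3 was high for the 5′ flank of Zan (1.33) and replicate 2 low for that of Ccne1 (0.94). The calls of these genes in aged group 3 against young held without any of the libraries of that comparison.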

How the results depend on the processing

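For aged group 3 against young, 293 3′-flank peaks were higher and 219 lower, and 272 5′-flank peaks were higher and 200 lower. In that order, leaving out peaks below the first quartile of mean level gave 137, 140, 144 and 139, the library code digit as a factor 20, 14, 28 and 11, and leaving out code digit 6 gave 27, 19, 41 and 27. The animal number series as a factor gave 114, 122, 127 and 102, animals numbered under 100 alone 0 in each, and the epithelial minus stromal score 1, 0, 3 and 0. Over all peaks, higher and lower were 4472 and 6075 with the quartile filter, 761 and 604 with the code digit, and 1019 and 938 without digit 6. They were 3667 and 3667 with the animal number series, 5 and 3 among animals under 100, and 38 and 13 with the score. Values as deposited gave 304, 338, 296 and 324, and median centring 368, 310, 344 and 301. Leaving out a library gave 192 to 381, 142 to 318, 195 to 350 and 122 to 300. For flank minus promoter, with 126 3′-flank and 91 5′-flank peaks called, the first 6 settings gave 76 and 49, 10 and 7, 3 and 1, 22 and 14, 0 and 0, and 0 and 0, and leaving out a library 65 to 170 and 54 to 136. For aged group 2 against young the 3′-flank count was 1 on values as deposited, 1 under median centring and 0 to 1 when a library was left out. For aged group 3 against aged group 2, leaving out a library gave 0 to 2 and 0 to 4. The other leave-one-out counts were 0. The cause of these moves was not tested, apart from fewer peaks or libraries where a setting removes them.

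The replicate block gave 201, 154, 192 and 140 for aged group 3 against young, and 52 and 43 for flank minus promoter. Deviations of same-numbered libraries of aged group 3 and young correlated between -0.300 and 0.266, so no steady pairing by number was seen in that comparison. The range was -0.036 to 0.423 for aged group 2 and young, and -0.356 to 0.533 for aged groups 3 and 2. Such correlations cannot settle whether the numbers carry a pairing. The other settings stayed within 1.5 times these counts, and none of the 24 named changes reversed. The median depth of 36 and 37 reads per peak and library limits the precision of single peaks.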
